A study of Mus musculus with 6 samples.

Results

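Siglecs are lectins of the immunoglobulin superfamily that sit on leukocytes and bind sialic acids, the sugars that cap most glycans on mammalian cells. Most of them carry inhibitory tyrosine motifs (ITIMs) that recruit the phosphatases SHP-1 and SHP-2 and dampen activation, others pair with the activating adaptor DAP12, and sialoadhesin mainly mediates adhesion. CD24, a small glycosylphosphatidylinositol-anchored protein covered with sialylated glycans, is a ligand of Siglec-G, and this pair is known to restrain responses to products of damaged cells. Described here are 8 genes of 26110 listed, the 7 Siglec genes Cd33, Siglece, Siglech, Siglec1, Siglecf, Siglecg and Cd22 and the ligand gene Cd24a. They were chosen by gene symbol on measured values of these same libraries, so that their levels are a description and carry no test.

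The muscularis externa (ME) of the small bowel of untreated CX3CR1 GFP/+ mice on a C57BL/6 background gave the MHCII hi cells, which flow cytometry divided by CX3CR1. Bulk RNA-seq was made of 3 libraries from CX3CR1- cells and 3 from CX3CR1+ cells. In these mice 1 allele of Cx3cr1 is replaced by GFP, so that CX3CR1+ means activity of the Cx3cr1 promoter, and both populations carry the same genotype. The ME of several mice was pooled for each group, and whether each library had a pool of its own is not stated, so that the spread between libraries may be technical. Whether a CX3CR1- and a CX3CR1+ library came from the same pool is not stated either, and the libraries were compared as unpaired. The labels call the cells dendritic cells and the study calls them macrophages. The study saw dendritic cell marker genes in this RNA-seq. By flow cytometry it found CD11c and CD103 protein on very few CX3CR1- cells, and it judged contamination by dendritic cells probably negligible. It describes the CX3CR1- cells as CD45+, a marker that most epithelial cells, fibroblasts and red cells lack, and as MHCII hi, which most T cells, neutrophils, eosinophils and red cells are not, and how transcripts of such cells entered these libraries was not tested. The study's methods give female mice for its animal experiments, and age is not given in the sources used here. The deposited values are estimated read counts per gene, normalized between libraries, and whether they carry a correction for transcript length is not given in the sources used here. Estimated depth was 11927366, 6517536 and 11331834 reads on genes for CX3CR1- replicates 1, 2 and 3, and for the CX3CR1+ replicates it was 17616761, 10014164 and 5346381. A level of 3 reads corresponded to normalized values between 1.39 and 5.36, and this floor covers counting error only. Mitochondrial transcripts took 47.5 to 54.9% of the normalized total in CX3CR1- and 18.1 to 21.2% in CX3CR1+ libraries, and their part in the differences given here was not tested. Log2 differences are CX3CR1- minus CX3CR1+ on log2(value + 1), each with its standard error (SE). The SE is that of the limma fit, moderated over all tested genes, and so does not give the spread of that gene's libraries alone.

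The markers of the populations set the frame for the Siglecs. The sorting gene Cx3cr1 was at 23.2, 18.9 and 28.5 in the CX3CR1- and at 371, 380 and 347 in the CX3CR1+ libraries, as the labels say. Of 12 muscularis macrophage genes, 11 were lower, the sorting gene Cx3cr1 among them, and 1, Lyve1, was higher in CX3CR1- libraries, where a call needs an adjusted p from limma no larger than 0.05 and a log2 difference of 1 or more in size. The median of the list was -2.41, against -0.003 over all tested genes. Their summed level was 10029, 11461 and 11518 in CX3CR1- and 54027, 55606 and 49950 in CX3CR1+ libraries, with Mrc1 the most abundant. The macrophage growth factor receptor gene Csf1r was at 1786 ± 237 (SD, n = 3) and 9487 ± 419 (SD, n = 3), and Adgre1 and Mertk had log2 differences of -3.14 and -2.51. Of 10 conventional dendritic cell genes, 9 were higher in CX3CR1- libraries and none lower, with a median of 3.31. Their sum was 4720, 4997 and 5058 against 583, 625 and 594, with Irf4 the most abundant over all libraries and Clec9a in CX3CR1- libraries, and Zbtb46, Flt3 and Dpp4 had log2 differences of 2.89, 3.33 and 3.88. The CX3CR1- libraries thus held transcripts of both lists. Because the libraries are bulk samples, fewer cells of a type and less RNA per cell cannot be told apart.

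All 8 members passed the filter of a mean of at least 10. The groups did not overlap for any of them, with 4 higher in CX3CR1+ and 4 higher in CX3CR1- libraries. Among all 17812 tested genes, the groups did not overlap for 40%, with CX3CR1- higher in 20.3% and CX3CR1+ higher in 19.8%. By the limma call, 20.4% of all tested genes differed. The members were chosen with this contrast known, and nothing is read from that comparison.

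Of the 4 members higher in CX3CR1+ cells, Cd33 had the largest difference. CD33 is the founding member of the CD33-related Siglecs, and the mouse protein can pair with DAP12. Its normalized value was 310.4, 234 and 276 in CX3CR1- replicates 1, 2 and 3 and 5139, 5091 and 5065 in the CX3CR1+ replicates. The CX3CR1+ libraries were all high and close to each other, and the CX3CR1- libraries were low but far above the floor. The mean was 273 ± 38.4 (SD, n = 3) against 5099 ± 37.4 (SD, n = 3), which is 18.7-fold higher in CX3CR1+ cells, and the log2 difference was -4.23 (SE 0.16).

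Siglece encodes an inhibitory receptor of neutrophils, monocytes and macrophages with ITIMs. It was at 102.5, 53.8 and 65.1 in CX3CR1- and at 616, 541 and 562 in CX3CR1+ libraries. Replicate 1 was the highest CX3CR1- library and still lay far below every CX3CR1+ library. The CX3CR1+ mean was 7.76-fold higher, with a log2 difference of -2.99 (SE 0.27).

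Siglech encodes a receptor without ITIMs that signals through DAP12 and is best known from plasmacytoid dendritic cells and microglia. Its values were 53.2, 57.8 and 61.4 in CX3CR1- and 322, 254 and 251 in CX3CR1+ libraries. All CX3CR1+ libraries were high, with replicate 1 above the other two. The CX3CR1+ mean was 4.79-fold higher and the log2 difference was -2.23 (SE 0.24). The list of 10 plasmacytoid dendritic cell genes had a median log2 difference of 1.88. Of its 8 tested genes, 4 were higher in CX3CR1- libraries and 1, Bst2, was lower, and the sum was 1463, 1820 and 1902 against 2250, 2232 and 2235, with Tcf4 the most abundant at a log2 difference of -0.92, short of the limit of 1. Spib had means of 88.9 ± 26.7 and 14.5 ± 1.83 (SD, n = 3), Pacsin1 had means of 6.14 and 1.63, and Ly6d was at 0 in all CX3CR1+ libraries. The part of plasmacytoid dendritic cells in the Siglech values was not tested.

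Siglec1 encodes sialoadhesin, a long adhesion receptor of tissue macrophages that lacks a signalling motif in its tail. It was at 130.5, 248 and 213 in CX3CR1- and at 750.4, 594 and 671 in CX3CR1+ libraries. The CX3CR1- libraries varied more on the log2 scale than those of Cd33, with replicate 1 the lowest, yet no value reached the CX3CR1+ range. The CX3CR1+ mean was 3.40-fold higher, with a log2 difference of -1.81 (SE 0.26).

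The remaining Siglecs were higher in CX3CR1- cells. Siglecg encodes an inhibitory receptor of B cells and dendritic cells and the receptor for CD24. It was at 146, 179 and 166 in CX3CR1- and at 4.82, 5.05 and 3.74 in CX3CR1+ libraries. The CX3CR1+ values correspond to about 10.4, 6.2 and 2.6 reads, so that replicate 3 lay under the floor of 3 reads. The CX3CR1- mean was 36.1-fold higher and the log2 difference was 4.90 (SE 0.37), both resting on few reads in CX3CR1+ libraries. Of the 31-mers of its transcripts, 7.01% also occur in another gene.

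Cd22 encodes an inhibitory receptor of B cells that prefers sialic acid in an alpha2,6 linkage. Its values were 223, 147 and 179 in CX3CR1- and 97.4, 70.0 and 71.5 in CX3CR1+ libraries. The gap between the lowest CX3CR1- and the highest CX3CR1+ library was, as a ratio, the narrowest of the 8 members. The CX3CR1- mean was 2.30-fold higher, with a log2 difference of 1.19 (SE 0.27), and 10.7% of the 31-mers of Cd22 also occur in another gene. Markers of B cells moved with Siglecg and Cd22. Of 10 B cell genes, 9 were higher in CX3CR1- libraries and none lower, with a median of 3.88, or 3.46 with the 3 genes under the floor in CX3CR1+ libraries at their lower bound. The sum was 1329, 1786 and 1269 against 190.1, 203 and 213. Ebf1 was the most abundant, at 290.2 ± 90.9 (SD, n = 3) and 77.7 ± 8.29 (SD, n = 3). Blk was at 30.9 ± 36.6 (SD, n = 3) in CX3CR1- libraries and at 0 in every CX3CR1+ library, and Cd79a was at 199 ± 75.6 (SD, n = 3) and 1.09 ± 0.97 (SD, n = 3). Cd79b, at 94.2 ± 57.9 (SD, n = 3) and 47.1 ± 11.4 (SD, n = 3), was not called. The part of B cell transcripts in the values of Siglecg and Cd22 was not tested.

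Siglecf encodes an inhibitory receptor of eosinophils and alveolar macrophages that is also found on intestinal tuft cells. It was at 44.5, 60.6 and 7.56 in CX3CR1- and at 3.56, 1.55 and 4.02 in CX3CR1+ libraries. CX3CR1- replicate 3 was far below the others of its group and came close to the CX3CR1+ libraries, of which replicates 2 and 3 lay under the floor. The mean was 37.5 ± 27.2 (SD, n = 3) against 3.05 ± 1.31 (SD, n = 3), with a log2 difference of 2.89 (SE 0.82), the least precise of the members, and it became 3.77 without CX3CR1- replicate 3. Of 8 eosinophil genes, 5 were listed and 1, Il5ra, was tested and called higher, at 46.4 ± 20.1 (SD, n = 3) against 9.65 ± 1.51 (SD, n = 3), and it was the most abundant. The list summed to 81.4, 69.7 and 97.4 against 17.0, 12.4 and 10.8, with Prg2 and Cebpe at 0 in all CX3CR1+ libraries, Prg2 at 10.4, 16.1 and 6.98 in CX3CR1- libraries, and Ccr3 at means of 4.21 and 2.26. Of 8 tuft cell genes, 7 were listed and 4 tested, with Dclk1 higher and Ptgs1 lower in CX3CR1- libraries and a median of 1.37. They summed to 895, 564 and 390 against 1582, 1514 and 1244, most of it Ptgs1, while Trpm5 was at means of 43.2 and 16.4 and Pou2f3 at means of 11.3 and 0.70, and Sh2d6 was at 0 in all CX3CR1+ libraries. The part of either cell type in the Siglecf values was not tested.

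Cd24a, the ligand gene, had the largest difference of the 8 members. It was at 1824, 1895 and 1856 in CX3CR1- and at 23.6, 29.5 and 35.4 in CX3CR1+ libraries. The CX3CR1- libraries were all high and nearly equal, and the CX3CR1+ libraries held about 51, 36 and 25 reads each, well above the floor. The means were 1858 ± 35.7 (SD, n = 3) and 29.5 ± 5.91 (SD, n = 3), a 63.0-fold higher value in CX3CR1- cells, and the log2 difference was 5.95 (SE 0.22). CD24 is also made by epithelial cells, B cells, neutrophils, T cells and maturing red cells. Of 10 intestinal epithelium genes, 10 were higher in CX3CR1- libraries, with a median of 6.23, and the list summed to 27620.0, 25609 and 16197 against 58.1, 31.5 and 50.3. Fabp2, its most abundant gene over all libraries, was at 21161, 21001 and 12559 in CX3CR1- and 9.25, 0.82 and 2.83 in CX3CR1+ libraries, and Epcam was at least 102-fold higher, with Vil1 and Cdh1 at log2 differences of 6.36 and 4.24. All 6 fibroblast genes were higher as well, with a median of 4.83, a sum of 7226, 4117 and 12168 against 316, 244 and 181, Dcn the most abundant, and log2 differences of 4.32, 4.64 and 4.81 for Col1a1, Col1a2 and Col3a1. Of 8 erythroid genes, 7 were listed and 4 tested, 1 of them higher. Their median was 1.81, or 2.68 with the 2 genes under the floor in CX3CR1+ libraries at their lower bound. Of these, Slc4a1 was at 80.4, 1.17 and 0 in CX3CR1- libraries. The list summed to 199, 19.7 and 130 against 45.7, 29.0 and 25.8, with Epor the most abundant over all libraries and Hba-a2 in CX3CR1- libraries. Hba-a1 was at 0 in all CX3CR1+ libraries and Alas2 at means of 3.01 and 2.51. Of 8 T cell genes, 4 were tested, 2 of them higher and 1, Cd4, lower, with a median of 1.25, a sum of 405, 443 and 430 against 584, 619 and 670, Cd4 the most abundant over all libraries and Cd2 in CX3CR1- libraries, Trac at 0 in all CX3CR1+ libraries, and Cd3e, Cd3d and Cd3g at means of 17.5, 83.5 and 11.9 against 1.02, 82.3 and 3.18. Of 8 neutrophil genes, Cxcr2 and Ltf were listed and summed to 51.1, 41.1 and 42.4 against 57.3, 63.1 and 45.3, most of it Cxcr2, which was not called. The conventional dendritic cell list given above was higher in CX3CR1- libraries as well, with 9 of 10 genes called and a median of 3.31. The part of any of these cell types, dendritic cells included, in the Cd24a values was not tested.

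**Figure D1:**
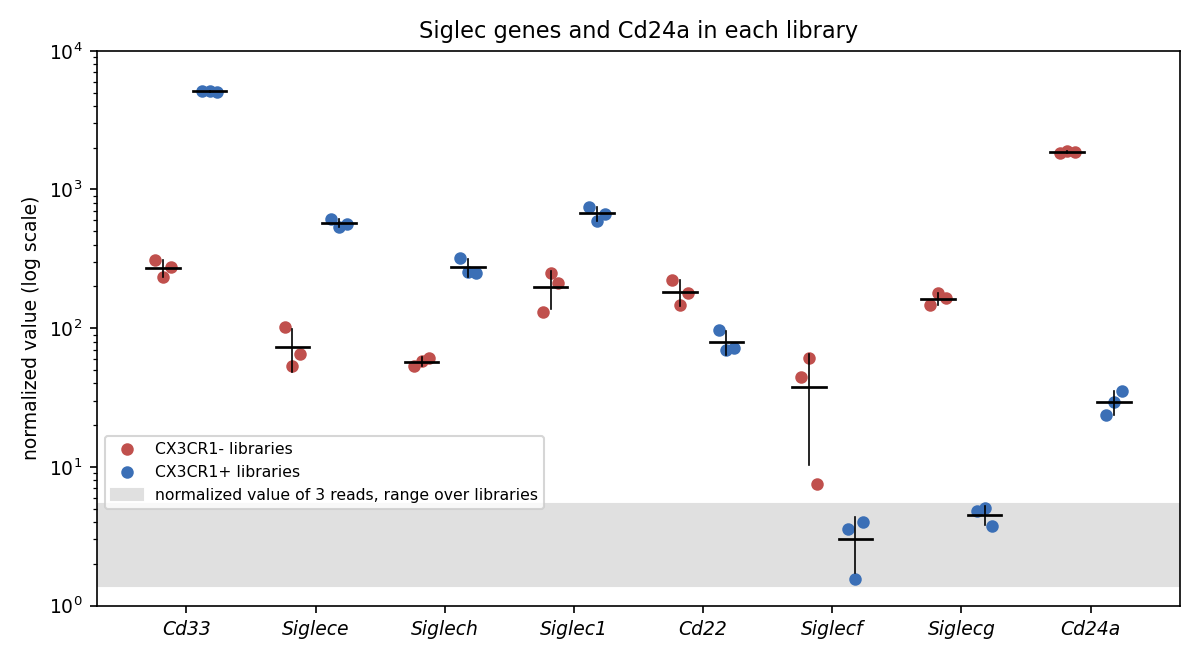
Normalized value of each member on a log axis, with 1 point per library, the group mean as a horizontal bar and the SD (n = 3) as a vertical line. The 4 genes from Cd33 to Siglec1 were higher in CX3CR1+ libraries and the other 4 in CX3CR1- libraries, with Siglecf of CX3CR1- replicate 3 at 7.56, and the grey band spans the value of 3 reads from 1.39 to 5.36.

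**Figure D2:**
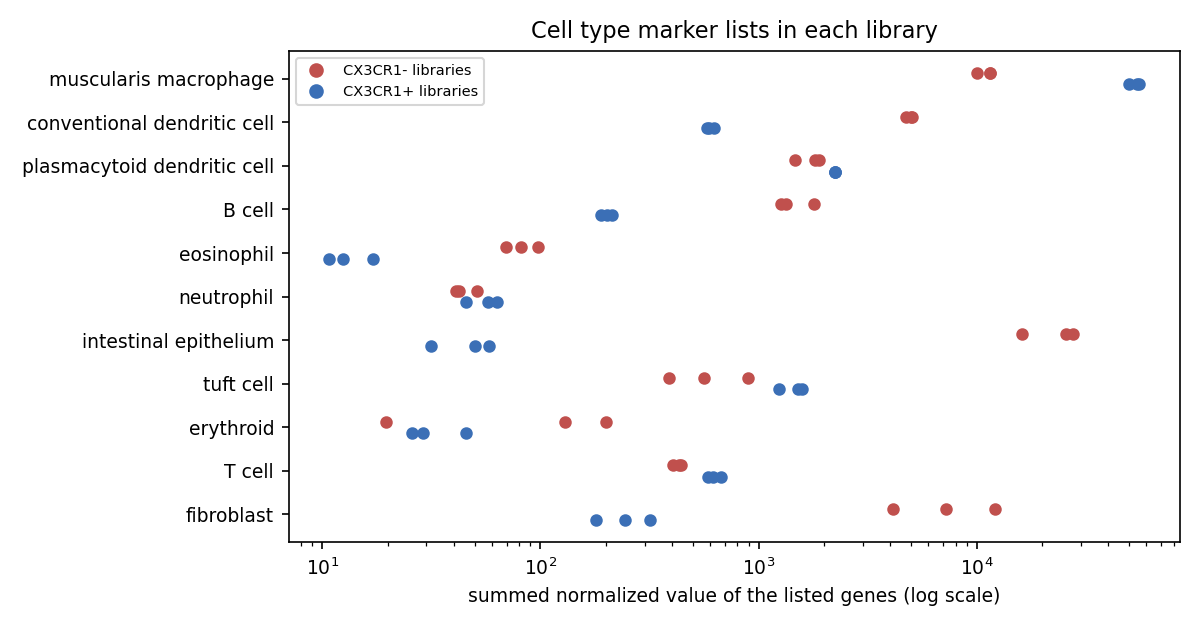
Summed normalized value of each cell type marker list on a log axis, with 1 point per library. The intestinal epithelium list reached 27620.0 in CX3CR1- and at most 58.1 in CX3CR1+ libraries, and the muscularis macrophage list was higher in all CX3CR1+ libraries.

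Divided by the length of the longest transcript in kilobases, the levels of different genes can be set side by side. In CX3CR1- cells Cd24a led with a level of 1023 ± 19.7 per kilobase (SD, n = 3), far above the Siglecs. Cd33, Cd22, Siglecg, Siglece and Siglec1 followed with levels per kilobase of 47.7 ± 6.71, 46.1 ± 9.55, 41.0 ± 4.19, 39.9 ± 13.8 and 30.9 ± 9.48 (SD, n = 3), where from Cd22 on each mean was within the SD of the gene before it. With the median transcript length in place of the longest, Cd33 and Cd22 were at 145.6 and 145.0 per kilobase but Siglecg and Siglece at 50.6 and 58.1, so that this closeness depends on the length used. Siglech was at 25.0 ± 1.79 per kilobase (SD, n = 3), within the SD of Siglec1, and Siglecf at 14.4 ± 10.4 per kilobase (SD, n = 3). In CX3CR1+ cells the order was another, with Cd33 first at 890.1 ± 6.52 per kilobase (SD, n = 3) and Siglece at 309.8 ± 21.0 per kilobase (SD, n = 3). Siglech and Siglec1 were at levels per kilobase of 119.8 ± 17.5 and 105 ± 12.3 (SD, n = 3), with Siglec1 within the SD of Siglech. Cd22 and Cd24a followed at 20.0 ± 3.87 and 16.2 ± 3.26 per kilobase (SD, n = 3), with Cd24a within the SD of Cd22, and Siglecf and Siglecg came last at 1.17 ± 0.50 and 1.14 ± 0.18 per kilobase (SD, n = 3). With the median transcript length, Siglech and Siglec1 were at 154 and 116 per kilobase and Cd22 and Cd24a at 63.0 and 39.7, so that the closeness within these pairs depends on the length as well.

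Besides Siglec1 on chr2:131069220-131086765 and Cd24a on chr10:43578284-43584265, the members lie on chromosome 7 of GRCm38. Siglecf (chr7:43351341-43359531), Siglecg (chr7:43408204-43418358), Cd33 (chr7:43524216-43544428) and Siglece (chr7:43651070-43660161) form a cluster, whereas Cd22 (chr7:30865402-30880342) and Siglech (chr7:55768178-55778925) lie apart. Within the cluster, the pair Siglecf and Siglecg was higher in CX3CR1- and the pair Cd33 and Siglece in CX3CR1+ cells. Of 56 tested genes within 250 kb of a member, 4 were called higher and 7 lower in CX3CR1- cells, with a median log2 difference of -0.18, against 12.2% higher, 8.15% lower and a median of -0.003 among all tested genes. Near Siglec1, Adam33 had a log2 difference of -2.96 (SE 0.32, adjusted p = 0.00011) and Cdc25b one of 1.69. Near Cd22, the log2 differences were -3.31 for Hpn, -2.65 for Gm4673, 1.60 for Lsr, 1.80 for Fxyd1 and 2.53 for Fxyd3. Of the 6 fits that left out a library, the call of Fxyd3 was lost in 5, those of Fxyd1 and Cdc25b in 4, that of Bend3, named below, in 3 and that of Hpn in 2. Beside Cd33, Zfp658 had one of -1.90 (SE 0.37, adjusted p = 0.0039). Cyfip1, 62.8 kb from Siglech, had a log2 difference of -1.19, a call lost after quantile normalization. Bend3, 62.9 kb from Cd24a, had one of -1.35, opposite in sign to that of Cd24a.

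**Figure D3:**
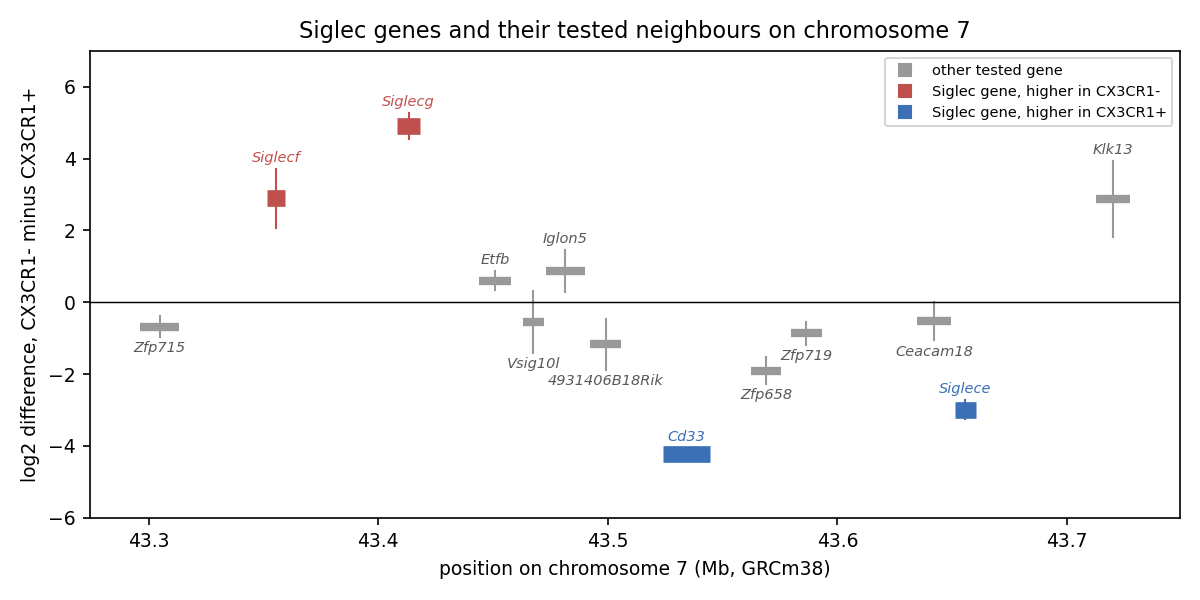
Log2 difference, CX3CR1- minus CX3CR1+, against position on chromosome 7 of GRCm38, with each gene drawn at its extent and the moderated SE as a vertical line. Siglecf and Siglecg lie above 0 at 2.89 and 4.90, Cd33 and Siglece below 0 at -4.23 and -2.99, and tested neighbours are grey.

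The region before the transcription start was read for the members that RefSeq's promoter table holds, 6 of 8, on GRCm38.p6. Siglec1 and Cd24a had no entry. The 250 bases before the start were searched on both strands for GAGGAA, the core letters bound by the myeloid and B cell factor PU.1, and for GGGCGG, the core of a GC box. Of 32851 promoters, 23.3% hold the PU.1 letters and 32.7% the GC box letters. The GC box letters were found in none of the members' windows. The PU.1 letters occurred 3 times before Siglece, which was higher in CX3CR1+ cells, and once before Siglecf, which was higher in CX3CR1- cells, so that both are shown, with the matches on either strand in capitals. There was also 1 match before Cd33, and 2 before 1 of the 2 starts of Siglecg, which was higher in CX3CR1- cells. No match was found before Cd22 or Siglech. The windows of Cd33, Siglecg, Cd22 and Siglech include bases of annotated exons. The Siglece window is chr7:43660162-43660411 on the minus strand and the Siglecf window is chr7:43351091-43351340 on the plus strand, both outside annotated exons.
Siglece: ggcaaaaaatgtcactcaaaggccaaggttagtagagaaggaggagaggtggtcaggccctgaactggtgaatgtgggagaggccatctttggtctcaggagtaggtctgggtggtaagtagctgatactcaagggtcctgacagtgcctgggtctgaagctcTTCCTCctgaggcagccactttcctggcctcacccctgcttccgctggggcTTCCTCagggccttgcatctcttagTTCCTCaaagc
Siglecf: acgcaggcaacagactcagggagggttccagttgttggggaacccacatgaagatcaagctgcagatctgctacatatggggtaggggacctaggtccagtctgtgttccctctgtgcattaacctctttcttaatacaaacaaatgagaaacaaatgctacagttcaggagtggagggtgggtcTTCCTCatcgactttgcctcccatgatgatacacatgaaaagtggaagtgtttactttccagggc

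Siglecs act through kinases, phosphatases and adaptors, and their ligands depend on the enzymes that build and trim sialic acids. The lists of these genes were written with earlier results of these data known. In all, 10 listed genes were called higher and 11 lower in CX3CR1- cells. Among all tested genes, 12.2% were higher and 8.15% lower, with a median log2 difference of -0.003. The numbers tested are given list by list below, and nothing is read from that comparison. Of 14 signalling partners, 2 were called higher and 3 lower, with a median of -0.24. The Src family kinase genes Fgr and Fyn had log2 differences of 3.61 (SE 0.54, adjusted p = 0.00088) and 2.59 (SE 0.39, adjusted p = 0.00088). Inpp5d, the gene of the phosphatase SHIP1, had one of -1.23, a call lost after quantile normalization. Tyrobp, the gene of DAP12, the adaptor of Siglec-H and mouse CD33, was the most abundant partner, with means of 2159 ± 391 and 4659 ± 759 (SD, n = 3), with a log2 difference of -1.11 (SE 0.18, adjusted p = 0.0016), a call that was lost without CX3CR1- replicate 3 and after quantile normalization. Ptpn6 and Ptpn11, the genes of SHP-1 and SHP-2, had log2 differences of -0.25 and 0.78 and were not called.

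Of 14 other receptors with ITIMs, 2 were called higher and 5 lower, with a median of -0.88. Lair1, a collagen receptor, had means of 204 ± 65.9 and 2320 ± 75.6 (SD, n = 3), and Cd72 and Sirpa, the receptor for CD47, had log2 differences of -2.77 and -2.11, and Cd72 shares 38.5% of its 31-mers with Tesk1. Lilrb4a was the most abundant, with a log2 difference of -1.82, but its symbol stands in 2 rows, of which the one with the higher mean was used, and 56.1% of its 31-mers occur in other genes, so that its value is uncertain. Ceacam1 and Cd300lf were higher, with log2 differences of 2.61 and 1.70, and Ceacam1 shares 37.6% of its 31-mers with other genes. Ceacam1 was at 679, 598 and 386 in CX3CR1- replicates 1, 2 and 3, and the part of intestinal epithelium in these values was not tested. Of the other Siglec genes, Mag had means of 15.3 and 36.9 and was not called, and Siglec15 was not analysed here.

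Sialyltransferases attach sialic acid in a given linkage and so set which Siglec can bind. Of 16 tested, 4 were called higher and 1 lower, with a median of 0.98. St3gal6, which adds alpha2,3-linked sialic acid, had means of 120.3 ± 22.4 and 1570.1 ± 85.2 (SD, n = 3), with a log2 difference of -3.71 (SE 0.20, adjusted p = 3e-06), and 24.8% of its 31-mers also occur in the overlapping Dcbld2. St3gal5, which makes the ganglioside GM3, had a log2 difference of 3.78 (SE 0.31, adjusted p = 2.1e-05), and St3gal4 and St6galnac3 had ones of 1.56 and 2.46, the latter a call lost in 5 of the 6 fits that left out a library. St8sia4, a polysialyltransferase gene, was the most abundant over all libraries, though with a lower CX3CR1+ mean than St3gal6, and was not called, at means of 1334 and 1404. St6gal1, which makes the alpha2,6 linkage that CD22 binds, had a log2 difference of -0.87 and was not called either.

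Of 7 tested genes of sialic acid synthesis and transport, none was called higher and 1 lower, with a median of -0.42. This was Npl, which breaks down sialic acid, with a log2 difference of -1.54 (SE 0.31, adjusted p = 0.0049). Cmah, which makes the N-glycolyl form of sialic acid, was the most abundant, at 538 ± 52.6 (SD, n = 3) and 1061 ± 98.6 (SD, n = 3), with a log2 difference of -0.98, short of the limit of 1. Of 4 tested sialidases and acetyl modifiers, 1 was lower, with a median of -0.67. It was the lysosomal sialidase gene Neu1, the most abundant, with a log2 difference of -1.09 (SE 0.33, adjusted p = 0.035), and its call was lost in 4 of the 6 fits that left out a library, as was that of Muc1. Of 8 other carriers of Siglec ligands, 2 were called higher and none lower, with a median of 0.52. These were the sialomucin genes Muc1 and Podxl, with log2 differences of 2.59 and 2.62, of which Muc1 is also an epithelial gene and Podxl lost its call without CX3CR1- replicate 1 and without the variance trend. Ptprc, which encodes CD45, was the most abundant and was not called, at 3737 ± 836 (SD, n = 3) and 4225 ± 342 (SD, n = 3).

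**Figure D4:**
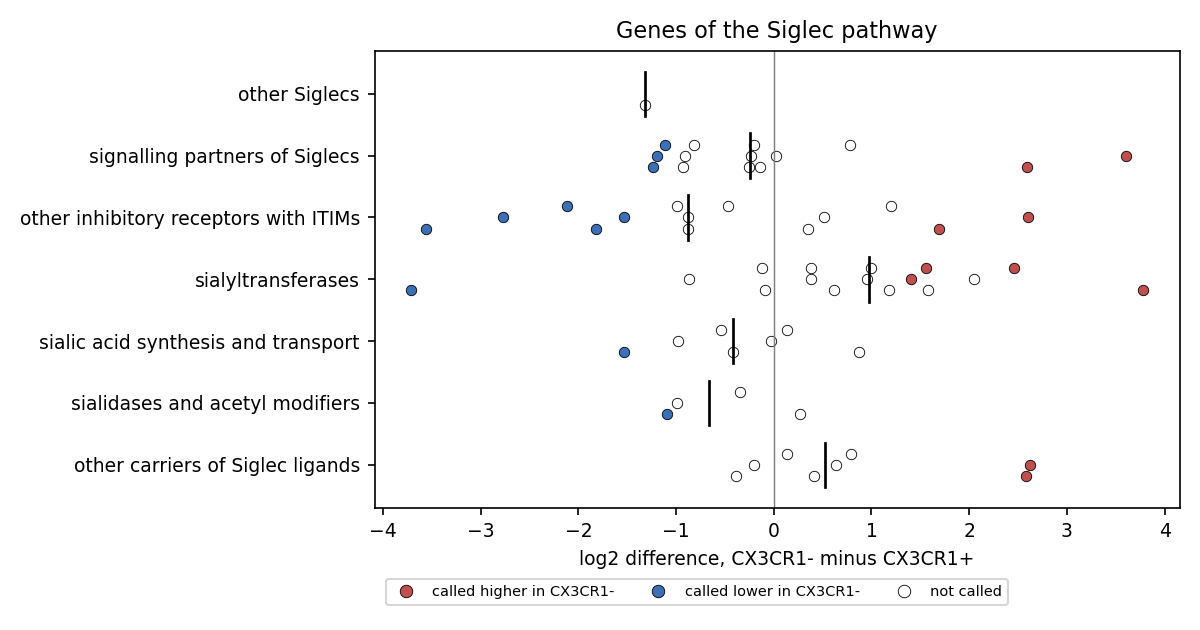
Log2 difference, CX3CR1- minus CX3CR1+, of each tested gene of 7 lists around the Siglecs, with 1 point per gene, called genes filled and the list median as a vertical bar. The sialyltransferases spread from -3.71 for St3gal6 to 3.78 for St3gal5, and the other receptors with ITIMs had a median of -0.88.

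For each member, the 3 genes with the most similar pattern were sought by Euclidean distance of centred log2(value + 1) over the 6 libraries. This distance depends largely on the difference between the groups, which was known when the members were chosen. It is a description, and the cell source of the nearest genes was not tested. For Cd33 they were A630081D01Rik, Cx3cr1 and Csf3r, at distances of 0.50, 0.51 and 0.64. For Siglech they were Gngt2, Clec4a1 and Serinc3, at 0.13, 0.15 and 0.21. For Cd22 they were Gm42547, Hdac7 and Tlr3, at 0.14, 0.26 and 0.27. For Cd24a they were Klf5, Phgr1 and Ace, at 0.42, 0.50 and 0.63, genes that are also expressed by intestinal epithelium. Siglecg was nearest to Tmem30b, 2010003K11Rik and Rpl30-ps9, at 0.34, 0.42 and 0.43, each with a CX3CR1+ mean of 0. Siglecf lay farther from its nearest genes Hoxaas3, F10 and Il22ra1, at 0.62, 1.05 and 1.07. Siglec1 was nearest to Gm15789, Gm28424 and Gm37399, at 0.26, 0.31 and 0.35, and Siglece to E230013L22Rik, Gm37689 and Gm2814, at 0.44, 0.44 and 0.49. Among the members themselves, Siglec1 and Siglech were the closest pair, at a distance of 0.79.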

How the data were processed

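Bulk RNA-seq gave 6 libraries, which the sample titles assign to the CX3CR1- or CX3CR1+ population. The authors pseudoaligned reads to the mm10 transcriptome with kallisto, summed estimated counts per gene and normalized them with DESeq2, so that the unit of the deposited table is signal, comparable between libraries. Depth was estimated from the smallest common step of each library, and only 53.5 to 63.1% of the values under 50 steps were whole multiples of it (tolerance 0.01), so that no count test was run. Genes whose mean over the libraries was 10 or more, 17812 in all, were tested on log2(value + 1) with limma 3.58.1 in R 4.3.3 (lmFit, eBayes with trend, two-sided, Benjamini-Hochberg over all genes tested). The procedure was tested on simulated data, where it did not recover all changed genes, and the conditions of that test were rewritten after a first outcome was seen. Members and lists were chosen with earlier results of these data known. Named are all members, the 3 called genes with the largest difference per direction and the most abundant gene of each pathway list, the first 3 and the most abundant of each marker list (by the mean over all libraries), called neighbours, at most 10, and the 3 nearest patterns per member. Some genes that these rules select are not reported here. Other genes named from the lists were chosen after their values were seen. Among the 26110 rows, 23 symbols are repeated. Positions, transcript lengths and shared 31-mers came from GENCODE for GRCm38, and plots from matplotlib 3.10.9. Alternatives were pseudocounts of 0.5 and 10, quantile normalization, no filter, a minimum mean of 50, no trend, rescaling by median ratios, a window of 100 kb, median transcript length and leaving out each library. Scaling to equal Ptprc was added after seeing the data.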

Additional observations from a re-analysis of the deposited data

How the results depend on the processing

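No member changed its direction after quantile normalization or scaling to equal Ptprc. Leaving out a library or another pseudocount could not change a direction, since the groups did not overlap, and rescaling by median ratios gave the same factor for every library. Leaving out each library in turn moved the log2 differences within -4.32 to -4.12 for Cd33, -3.25 to -2.79 for Siglece, -2.30 to -2.12 for Siglech, -2.00 to -1.54 for Siglec1, 4.79 to 4.98 for Siglecg, 1.04 to 1.34 for Cd22, 5.80 to 6.08 for Cd24a and 2.34 to 3.77 for Siglecf. A pseudocount of 10 lowered Siglecf to 1.65, Siglecg to 3.57 and Cd24a to 5.57, since it weighs more at low values. Quantile normalization, which shifted the median of all genes by -0.14, moved Siglecf the most, to 2.18, and gave -3.95 for Cd33 and 4.50 for Siglecg. It also evened the calls among all genes, to 1716 higher and 1674 lower. Scaling to equal Ptprc, chosen after seeing the data, shifted that median by 0.20 and gave -4.03 for Cd33, -2.04 for Siglech and 5.08 for Siglecg. Relative to these shifts, Cd33 was at -3.81 and -4.23 and Siglecg at 4.64 and 4.87.

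With a mean of at least 50, 2413 genes were called in place of 3628, and 1232 in place of 2177 were higher, among fewer genes tested. Leaving out each library gave 2771 to 3869 calls. Within 100 kb of a member 6 neighbours were called, against 11 within 250 kb. Of the 21 called genes of the pathway lists, 15 were called without each library in turn. Tyrobp lost its call without CX3CR1- replicate 3 and Podxl without CX3CR1- replicate 1, Muc1, Neu1 and St8sia6 in 4 of 6 such fits and St6galnac3 in 5 of 6. After quantile normalization, Tyrobp, Inpp5d, Muc1, Neu1, St6galnac3 and St8sia6 were not called, and without the variance trend Podxl, Neu1 and St6galnac3 were not. Of the neighbours, Fxyd3 lost its call in 5 of 6 such fits, Fxyd1 and Cdc25b in 4, Bend3 in 3 and Hpn and Gm44616 in 2. Cdc25b, Cyfip1, Fxyd1 and Fxyd3 were not called after quantile normalization, and Bend3, Fxyd1 and Hpn not without the variance trend.

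With the median transcript length, levels per kilobase in CX3CR1- cells became 2501 for Cd24a, 145.6 for Cd33, 145.0 for Cd22, 58.1 for Siglece, 50.6 for Siglecg, 34.1 for Siglec1 and 32.0 for Siglech. In CX3CR1+ cells they became 2717 for Cd33, 450.7 for Siglece, 154 for Siglech, 116 for Siglec1, 63.0 for Cd22, 39.7 for Cd24a and 1.40 for Siglecg. This exchanged Siglecg with Siglece in CX3CR1- and with Siglecf in CX3CR1+ cells, and no other places. Depth limits Siglecf and Siglecg in CX3CR1+ libraries, where they rest on about 1.9 to 10.4 reads.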
